A study of Mus musculus with 8 samples.

Results

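Mitochondria carry their own ribosome, which translates the few proteins encoded by mitochondrial DNA, all of them subunits of the respiratory chain complexes. Its ribosomal RNAs are made inside the organelle, while every one of its protein subunits is encoded in the nucleus, made in the cytosol and imported. The genes described here are those with a symbol that starts with Mrps or Mrpl followed by a number, with a mean of at least 10 normalised counts over the 8 libraries. They number 77 of the 18102 genes in the table, and no gene with such a symbol fell below that mean. By the list of subunits used here, 26 encode small subunit proteins, 50 encode large subunit proteins, and Mrps36, now known as a subunit of the 2-oxoglutarate dehydrogenase complex, was assigned to neither subunit. Of the 76 ribosomal ones, 46 have a bacterial counterpart and 30 are found in mitochondrial ribosomes only.

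RNA was sequenced from NMuMG, an epithelial cell line from the mouse mammary gland, in 4 groups of 2 libraries. They are cells labelled as an RREB1 knockout (KO) and wild-type (WT) cells, each given TGFβ (100 pM for 1.5 h), a ligand that drives epithelial-to-mesenchymal transition in this line, or SB505124 (2.5 µM for 6 h), which blocks the kinase of TGFβ receptors. All groups were serum-starved for 6 h, the inhibitor groups are not untreated cells, and treatment and exposure time cannot be told apart. All KO libraries carry the code KO1, taken here as 1 clone, and no label says that replicates came from separate cultures. The p-values therefore cover the spread between these libraries alone, which may be technical. The targeted gene, Rreb1, had 2481 and 2241 normalised counts in KO-labelled cells under TGFβ, 1327 and 1343 in KO-labelled cells under SB505124, 1959 and 1769 in WT cells under TGFβ, and 1055 and 1033 in WT cells under SB505124. It was not lower in the libraries labelled KO, so the label serves here only as a name.

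Reads counted on the 18102 genes ran from 25144204 to 32143113 a library, and the 77 genes took 0.320% to 0.427% of them. The epithelial markers Krt8, Krt18, Krt19 and Cdh1 were abundant in all 8 libraries, with Cdh1 the lowest of them at 13123 or more normalised counts. Epcam was at 0 in the 4 KO-labelled libraries and between 4.01 and 36.6 in WT libraries, Krt14 was at 0 in KO-labelled and between 3.00 and 46.3 in WT libraries, and Krt7 was between 16.8 and 27.7 in KO-labelled and between 8683 and 11806 in WT libraries. Krt5 went the other way, at 56.8 to 82.1 in KO-labelled and 0 to 3.43 in WT libraries. Summed over the epithelial markers, of which 8 of 12 listed had a mean of at least 10, levels ran from 270580 to 273490 in KO-labelled cells under TGFβ, 186040 to 199650 in KO-labelled cells under SB505124, 247260 to 248470 in WT cells under TGFβ, and 181870 to 191390 in WT cells under SB505124. Cldn7, also listed as epithelial, was at 3.72 or below in all 8 libraries, and Cldn3 and Esrp1 had no values. Summed leukocyte markers stayed between 485 and 696, fibroblast markers between 35.4 and 172, and endothelial and adipocyte markers at 40.0 or below. These sums hide single markers. The fibroblast marker Dcn was at 0 to 0.864 in KO-labelled and 38.9 to 94.1 in WT libraries. Of the leukocyte markers, Csf1r was at 7.77 to 13.5 and 24.0 to 53.7, while Cd68 went the other way (179 to 202 and 129 to 157). The part of such differences in the results was not tested.

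The start of a gene is where transcription factors known for mitochondrial genes act. Among them are NRF1, GABP of the ETS family, and YY1. Of the 77 genes, 68 matched a RefSeq promoter (GRCm38.p6, which is mm10), defined as 250 bases before to 50 after a start site. The core letters TGCGCA for NRF1, CCGGAAG for GABP and other ETS factors, and ATGGCGG for YY1 were searched on both strands, and no core contains another, though neighbouring sites can share end bases. The NRF1 core stood in 20 of the 68 (29.4%), against 8.79% of all 27025 genes with a promoter and 16.0% of the tested ones. The GABP core stood in 25 (36.8%, against 9.93% and 20.3%), the YY1 core in 13 (19.1%, against 4.69% and 9.51%), and at least 1 of the 3 in 45 (66.2%, against 20.2% and 38.3%).

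The 120 bases upstream of the start of 5 members are shown because they contrast genes that rose under TGFβ in WT cells (Mrpl52, Mrpl34 and Mrps16) with genes that did not pass there (Mrpl45 and Mrps22). They were chosen after these values were seen, and the call of Mrpl34 (0.29 ± 0.11) was lost in 10 of 19 alternative settings. Capitals mark a match to 1 of the 3 cores, on either strand, and none of these windows overlaps an exon in GENCODE M21. They are read 5′ to 3′ on the strand of the gene, from RefSeq on GRCm38.p6, and lie at chr14:54426789-54426908 (plus strand, Mrpl52), chr8:71464806-71464925 (plus, Mrpl34), chr14:20393635-20393754 (minus, Mrps16), chr11:97315596-97315715 (plus, Mrpl45) and chr9:98601680-98601799 (minus, Mrps22).
Mrpl52: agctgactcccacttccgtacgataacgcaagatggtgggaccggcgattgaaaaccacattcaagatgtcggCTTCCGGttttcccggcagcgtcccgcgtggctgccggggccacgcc
Mrpl34: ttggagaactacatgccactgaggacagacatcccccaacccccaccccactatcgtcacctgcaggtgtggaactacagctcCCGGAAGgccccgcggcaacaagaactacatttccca
Mrps16: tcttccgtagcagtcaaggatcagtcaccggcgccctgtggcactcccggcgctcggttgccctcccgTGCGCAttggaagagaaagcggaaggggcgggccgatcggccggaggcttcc
Mrpl45: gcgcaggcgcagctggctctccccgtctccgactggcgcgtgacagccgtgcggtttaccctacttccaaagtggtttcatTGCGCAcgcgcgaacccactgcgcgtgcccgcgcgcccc
Mrps22: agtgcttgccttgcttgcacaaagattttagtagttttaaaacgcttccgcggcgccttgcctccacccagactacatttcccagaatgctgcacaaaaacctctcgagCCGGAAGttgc
The same GABP core thus lies upstream of Mrpl52, Mrpl34 and Mrps22, and the NRF1 core upstream of Mrps16 and Mrpl45. RefSeq has a second start for Mrps16, not printed because its window lies in exon, and that promoter holds the GABP core as well as the NRF1 core. Among the 36 members with a promoter that rose in WT cells, 11 had the NRF1 core, 15 the GABP core and 3 the YY1 core, and among the 32 others the numbers were 9, 10 and 10.

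The members were expressed at moderate levels. Their mean normalised counts ran from 195 (Mrpl23) to 4146 (Mrpl12), with a median of 1232, against a median of 900.3 over the 12498 tested genes. Per kilobase of transcript, the levels ran from 192 (Mrpl47) to 4411 (Mrpl33) normalised counts, with a median of 1021 against 405 for all tested genes. The highest per kilobase after Mrpl33, a small large-subunit protein, were Mrpl20 (3495), Mrpl17 (3296), Mrpl42 (3224) and the small subunit gene Mrps21 (3164). At the low end, Mrpl57, Mrpl19, Mrpl1 and Mrps25 had 201, 222, 229.8 and 255 normalised counts per kilobase. The order among the highest changed with the group. Mrpl17 averaged 3700.4 per kilobase in KO-labelled cells under TGFβ, 3469 in KO-labelled cells under SB505124, 3268 in WT cells under TGFβ and 2745 in WT cells under SB505124. Mrpl20 averaged 2437, 2272, 5296 and 3976 per kilobase in the same groups, so it stood below Mrpl17 in KO-labelled cells and above it in WT cells. The median small subunit gene had 789.5 normalised counts per kilobase and the median large subunit gene 1217.5. Between replicates, the median SD of a member was 0.0721 on the log2 scale, against 0.0791 for all tested genes. Members also shifted together between replicates. Of the 77, 62 were higher in replicate 2 than in replicate 1 in KO-labelled cells under TGFβ, 36 in KO-labelled cells under SB505124, 62 in WT cells under TGFβ and 70 in WT cells under SB505124, where all tested genes had 47.5%, 44.0%, 53.2% and 52.2%. The median log2 shifts of the members were 0.10, -0.02, 0.12 and 0.10.

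**Figure D1:**
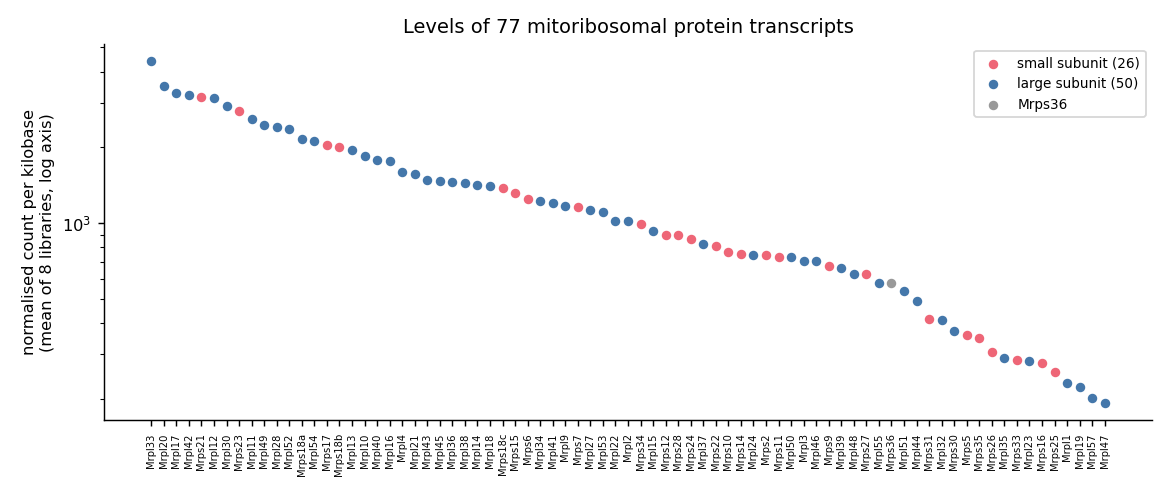
Mean level of each of the 77 genes over 8 libraries, in normalised counts per kilobase of transcript on a log axis, ordered from high to low and coloured by ribosomal subunit. Levels run from 4411 (Mrpl33) to 192 (Mrpl47), and genes of both subunits are spread along the order.

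In WT cells many mitoribosomal genes rose under TGFβ, each by a small amount. Limma called 40 of the 77 higher and none lower (adjusted p under 0.05), which is 51.9% of the members against a background of 43.3% of all tested genes called, 20.2% higher and 23.2% lower. The median log2 fold change of the members was 0.26 (1.19-fold), against -0.01 for all tested genes, and 72 of 77 members had a positive value. Over the 4 pairings of a TGFβ with an SB505124 library, that median ran from 0.14 to 0.30. Summed over the members, normalised counts were 113981 and 122693 in WT cells under TGFβ, against 96833 and 103986 in WT cells under SB505124. In bulk RNA a change in the number of cells of one kind and a change of RNA per cell cannot be told apart, and normalised counts give shares of the RNA pool. Without WT SB505124 replicate 1 the count fell to 13 of 77, without WT TGFβ replicate 2 it was 22, and after a correction for GC content and transcript length 25 rose and 1 fell.

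**Figure D2:**
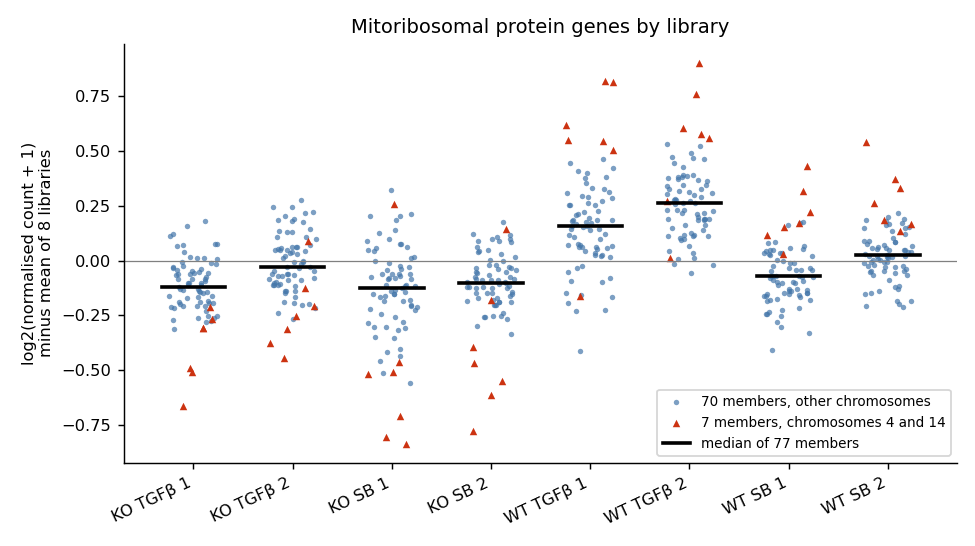
Each of the 77 genes in each of the 8 libraries, as log2(normalised count + 1) minus that gene's mean over the libraries, with the 7 genes on chromosomes 4 and 14 as triangles and the median of the 77 as a bar. The medians lie below 0 in the 4 KO-labelled libraries, at 0.16 and 0.26 in the WT TGFβ libraries, and at -0.07 and 0.03 in the WT SB505124 libraries.

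The largest rise in WT cells was that of Mrpl54 (ENSMUSG00000034932.4, chr10:81264713-81266934), a large subunit gene with no bacterial counterpart. It had 1699 and 1633 normalised counts under TGFβ, against 1104 and 1174 under SB505124, a log2 fold change of 0.55 ± 0.10 (SE, here and for all log2 values; limma adjusted p = 1.75e-04). The groups did not overlap, as was true of every member called in any comparison here. With 2 libraries a group, a call nearly requires this, so it adds no support to the calls. Mrpl52 (ENSMUSG00000010406.12, chr14:54426909-54429756), also specific to mitochondria, had 1636 and 1414 under TGFβ, against 1046 and 1042 under SB505124 (0.54 ± 0.10, limma adjusted p = 2.1e-04). Mrpl33, the most abundant per kilobase, had 2647 and 2974 under TGFβ, against 1869 and 2003 under SB505124 (0.54 ± 0.09, limma adjusted p = 1.19e-04). The small subunit gene Mrps21 had 1588 and 1745 under TGFβ, against 1135 and 1206 under SB505124, a rise of 0.51 ± 0.09. These 4 genes have transcripts of 405 to 604 nt. Smaller rises were those of Mrpl30 and Mrps18c (both 0.45), Mrpl23 (0.43, a call lost in 7 of 19 alternatives), whose protein sits at the exit of the peptide tunnel, and Mrps7 (0.42), which encodes a protein of the head of the small subunit.

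Calls in WT cells fell on both subunits. Of the 26 small subunit genes 13 rose and of the 50 large subunit genes 27 rose, with medians of 0.26 each. Of the 46 genes with a bacterial counterpart 27 rose (median 0.28), and of the 30 without one 13 rose (median 0.23). In the stalk that recruits translation factors, Mrpl12, the most highly expressed member, had 5004 and 5284 normalised counts under TGFβ, against 3902 and 4544 under SB505124 (0.29 ± 0.09, limma adjusted p = 0.0186). Mrpl11, at the stalk base, rose by 0.42 (2199 ± 178 against 1646 ± 143, SD, n = 2 each). The stalk anchor Mrpl10 did not pass, at 2383 ± 80.6 against 2309.5 ± 14.9. The differences between these 3 genes were not tested.

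Mrps18a, Mrps18b and Mrps18c are paralogs of 1 bacterial protein, and 2 of the 3 rose. Mrps18c, the small subunit form counted with a bacterial counterpart, had 1035 and 1139.5 normalised counts under TGFβ, against 792 and 801 under SB505124 (limma adjusted p = 0.00111), and 23.2% of its exon bases are shared with an annotated transcript on the same strand. Mrps18a, which belongs to the large subunit, had 1889.8 ± 72.0 under TGFβ, against 1482 ± 184 under SB505124 (SD, n = 2 each), a rise of 0.36. Mrps18b had 1684 and 1746 under TGFβ, against 1672 and 1691 under SB505124 (0.03 ± 0.08, limma adjusted p = 0.805), and 30.5% of its exon bases lie opposite another annotated transcript. Mrps30, a large subunit gene in spite of its symbol, did not pass (0.15 ± 0.09), nor did Mrpl44, with a ribonuclease III-like fold (0.07 ± 0.10), or Mrpl45, near the peptide exit (0.04 ± 0.09). Mrps36, which is not part of the ribosome, had 362 ± 45.1 under TGFβ, against 361 ± 19.7 under SB505124 (SD, n = 2 each).

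Responses in WT cells were larger for short transcripts. Of the 36 members under 1000 nt, 25 rose (69.4%), with a median of 0.29, and of the 41 longer ones 15 rose (36.6%), with a median of 0.13. Across the 77 genes, the WT response and log2 length had a Pearson r of -0.47 and a Spearman rho of -0.50, and over 12392 annotated tested genes these were -0.19 and -0.32. Genes are not independent replicates and share libraries, so these are descriptions with no test. Of the 2355 tested genes under 1000 nt 32.8% rose (median 0.17), and of the 10037 longer ones 17.2% rose (median -0.05), and the median member had 1047 nt against 2140 for all tested genes. With the curves of GC content and length removed, the median member response was 0.11, and the leading genes had 0.22 (Mrpl54), 0.24 (Mrpl52), 0.48 (Mrpl33) and 0.34 (Mrps21). The part of length and GC content in the response beyond this was not tested.

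**Figure D3:**
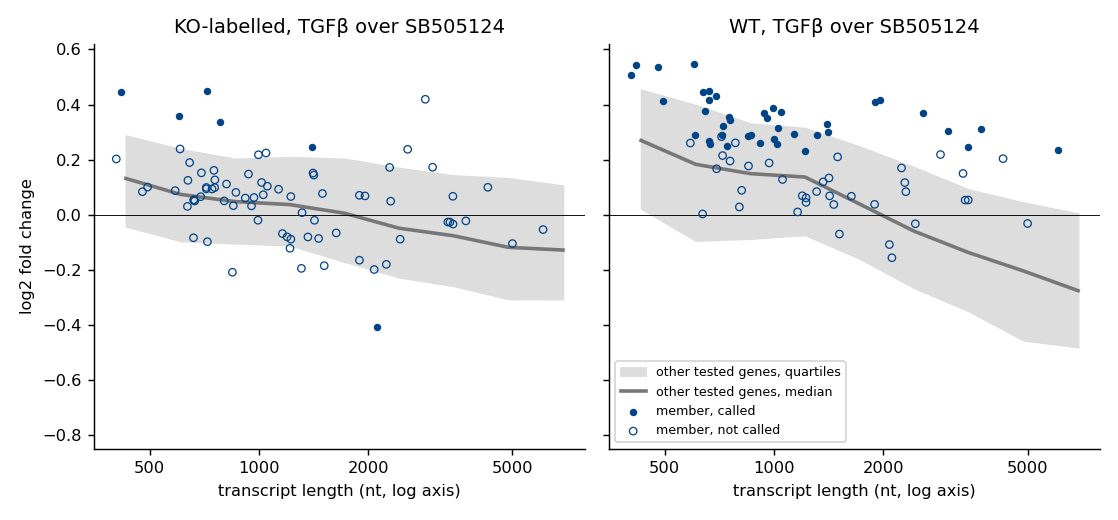
TGFβ over SB505124 log2 fold change of each of the 77 genes (filled where called) against transcript length on a log axis, in KO-labelled cells on the left and WT cells on the right, with the median and quartiles of the other tested genes by length. In WT cells short genes lie higher than long ones among members and other genes alike, with medians of 0.29 for members under 1000 nt and 0.17 for all tested genes of that length.

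Few mitoribosomal genes passed in KO-labelled cells. TGFβ raised 5 of 77 and lowered 1 (limma), which is 6.49% and 1.30% of the members against a background of 30.9% of tested genes called, 15.1% higher and 15.8% lower. The median log2 fold change was 0.07, against -0.02 for all tested genes, and 52 of 77 members had a positive value. Over the 4 pairings of libraries the median ran from -0.01 to 0.12, so its sign depended on the pairing. The count of rises was 1 without KO SB505124 replicate 1 or without KO TGFβ replicate 2, and 12 without KO SB505124 replicate 2. The median became -0.019 after the GC and length correction.

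Mrps12, which encodes a protein of the decoding centre, had 617 and 734 normalised counts in KO-labelled cells under TGFβ, against 433 and 559.7 under SB505124 (0.45 ± 0.13, limma adjusted p = 0.0114). Mrpl52 had 751 and 853 under TGFβ, against 569 and 607 under SB505124 (0.45 ± 0.10, limma adjusted p = 0.00171), and Mrpl54 had 1198 and 1381, against 925 and 1088 (0.36 ± 0.10). The groups did not overlap, but the Mrps12 libraries of each group lay far apart, and its call was lost in 6 of 19 alternatives. Mrps28 (0.34) and Mrpl43 (0.25) also rose, and 33.4% of the Mrpl43 exon bases lie opposite Twnk, the mitochondrial helicase gene. The call of Mrpl43 was lost in 7 of 19 alternatives. The single fall was that of Mrpl50 (ENSMUSG00000044018.3, chr4:49512596-49521093), a large subunit gene specific to mitochondria, at 1323 and 1329 under TGFβ, against 1832 and 1692 under SB505124 (-0.41 ± 0.09, limma adjusted p = 0.00126). In WT cells Mrpl50 had 1370.5 and 1543 under TGFβ, against 1565 and 1678 under SB505124, and did not pass (-0.16 ± 0.09). Without the members on chromosomes 4 and 14, 4 genes rose and none fell.

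The responses in the 2 genotypes rest on separate libraries. Of the 40 genes that rose in WT cells, 4 also rose in KO-labelled cells (Mrps12, Mrpl43, Mrpl52 and Mrpl54), and these are 4 of the 5 that rose there. Across the 77 genes the KO and WT responses had a Pearson r of 0.61 and a Spearman rho of 0.58, against 0.80 and 0.73 over all tested genes. The KO response minus the WT response, taken with its sign, was negative for 68 of 77 members and for 47.2% of all tested genes. A larger fall in KO-labelled cells, as for Mrpl50, counts as negative here. The median difference was -0.16 for the members, against 0.01 for all tested genes. Of tested genes under 1000 nt, 1434 of 2355 had a negative difference (median -0.07), and of longer ones 4411 of 10037 (median 0.03). Members had 31 of 36 and 37 of 41 negative in these length classes. So did 71 of 75 cytosolic ribosomal protein genes and 70 of 75 nuclear-encoded respiratory chain genes, and the part of length was not tested.

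No member passed the test of the difference itself with limma, where the background was 2.82% of tested genes called, 2.25% with a higher and 0.568% with a lower response in KO-labelled cells. At an unadjusted p under 0.05, 18 of 77 members passed, all with a negative difference (KO minus WT). Of the 12498 tested genes 2102 passed at that threshold, 802 with a negative and 1300 with a positive difference. With edgeR and with DESeq2 on the recovered reads, 2 members each passed with a negative difference. Without WT TGFβ replicate 1 the limma count was 12, and over the 4 pairings of libraries the median ran from -0.33 to -0.01. The most negative value was that of Mrps6, a small subunit gene, with 904 and 990.3 normalised counts in KO-labelled cells under TGFβ, against 1120.5 and 1068 under SB505124, while WT cells had 1094 and 1289 under TGFβ, against 936 and 1011 under SB505124. Its difference of responses was -0.50 ± 0.14 (limma adjusted p = 0.0585). Of its exon bases 19.9% are shared with the annotated gene Gm49711 and 10.4% with Slc5a3, both on the same strand, and Slc5a3 had a mean of 826 normalised counts. The differences of Mrpl33 (-0.45 ± 0.13, limma adjusted p = 0.0668), Mrpl30 (-0.40 ± 0.12) and Mrps24 (-0.41 ± 0.13) were next, and all 4 were chosen for naming after their values were seen.

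**Figure D4:**
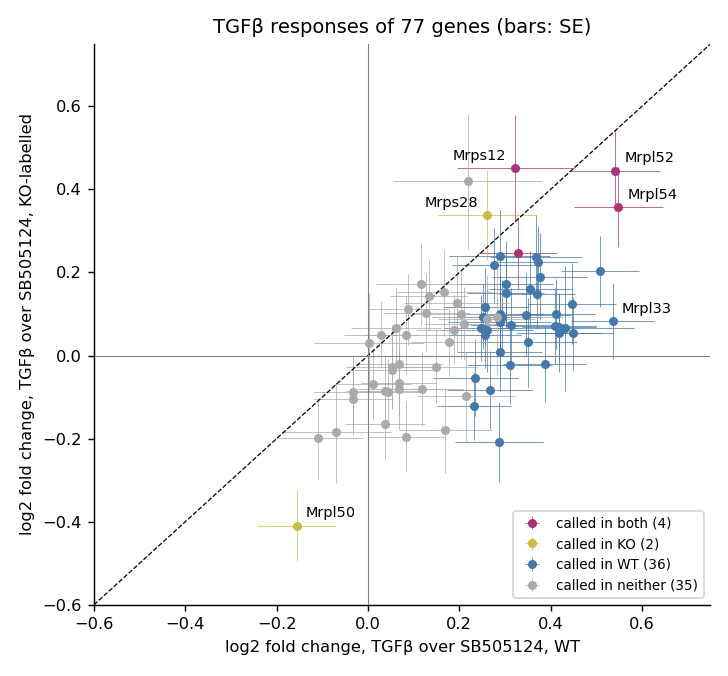
TGFβ over SB505124 log2 fold change of each gene in KO-labelled cells (vertical axis) against that in WT cells (horizontal axis), with SE bars and colours for the calls, the dashed line marking equal responses. Of the 77 genes, 68 lie below the dashed line, while 4 are called in both genotypes.

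Under TGFβ, many mitoribosomal genes were lower in KO-labelled than in WT cells, a comparison that shares the WT TGFβ libraries with the TGFβ response of WT cells. Limma called 44 of 77 lower (57.1%, background 30.2%) and 2 higher (2.60%, background 32.7%), with a median log2 fold change of -0.30 against 0.01 for all tested genes, of which 62.9% were called. Under SB505124, 22 were lower (28.6%, background 27.7%) and 7 higher (9.09%, background 29.2%), with a median of -0.09 against 0.01 for all tested genes, of which 56.9% were called. The share called lower under SB505124 thus lay near the background, and the share called higher lay below it in both comparisons. Of the 44 genes lower under TGFβ, 21 were also lower under SB505124, which is 21 of the 22 there. Summed over the members, KO-labelled cells under TGFβ had 95784 ± 4320 normalised counts, KO-labelled cells under SB505124 93359 ± 1257, WT cells under TGFβ 118340 ± 6160 and WT cells under SB505124 100410 ± 5058 (SD, n = 2 each). The WT TGFβ libraries stood above the rest, and those of the other groups lay between 92470 and 103986.

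Some of the lowest values in KO-labelled cells belonged to whole chromosomes. On chromosome 4, the other tested genes had a median log2 fold change of -0.68 in KO-labelled against WT cells under TGFβ and -0.69 under SB505124, and on chromosome 14 of -0.58 and -0.61. The 7 members there are Mrpl20, Mrpl37, Mrps15 and Mrpl50 on chromosome 4, and Mrps16, Mrpl52 and Mrpl57 on chromosome 14. Of these 6 were lower under TGFβ (median -0.93) and 6 under SB505124 (median -0.81), the exception being Mrpl50. The other tested genes of chromosome 4 were called lower in 77.4% under TGFβ and 80.2% under SB505124. Those of chromosome 14 were called lower in 70.1% and 74.4%. Among the 70 members on other chromosomes 38 were lower (54.3%) and 2 higher (2.86%) under TGFβ (median -0.27). Of all tested genes 30.2% were lower and 32.7% higher there. Under SB505124, 16 of the 70 were lower (22.9%) and 7 higher (10.0%), with a median of -0.08. Both shares lay below the background of 27.7% lower and 29.2% higher. Genotype and these 2 chromosomes cannot be told apart in 1 clone.

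Mrps16 (ENSMUSG00000049960.4, chr14:20389304-20393634), a small subunit gene with a bacterial counterpart, had the lowest fold of all members. It had 403 and 469.5 normalised counts in KO-labelled cells against 1119 and 1189.8 in WT cells under TGFβ, and 366 and 372 against 861 and 928 under SB505124. The log2 fold changes were -1.40 ± 0.10 (2.65-fold lower, limma adjusted p = 9.17e-10) and -1.27 ± 0.10 (2.42-fold lower, limma adjusted p = 3.73e-09), and after subtraction of the chromosome median they were -0.78 and -0.64, both still called. Mrpl20 had 1156 and 1252 in KO-labelled cells, against 2486 and 2746 in WT cells, under TGFβ (-1.12 ± 0.08), and it was at -0.81 under SB505124. With the chromosome median subtracted it was still called under TGFβ (-0.41) but not under SB505124 (-0.10). Mrpl37 was at -0.96 under TGFβ and -0.83 under SB505124, Mrpl52 at -0.93 and -0.83, Mrps15 at -0.82 and -0.59, and Mrpl57 at -0.50 and -0.70. Of these 4, Mrpl37 and Mrpl52 kept their call under TGFβ after that subtraction, and none of the 4 did under SB505124.

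**Figure D5:**
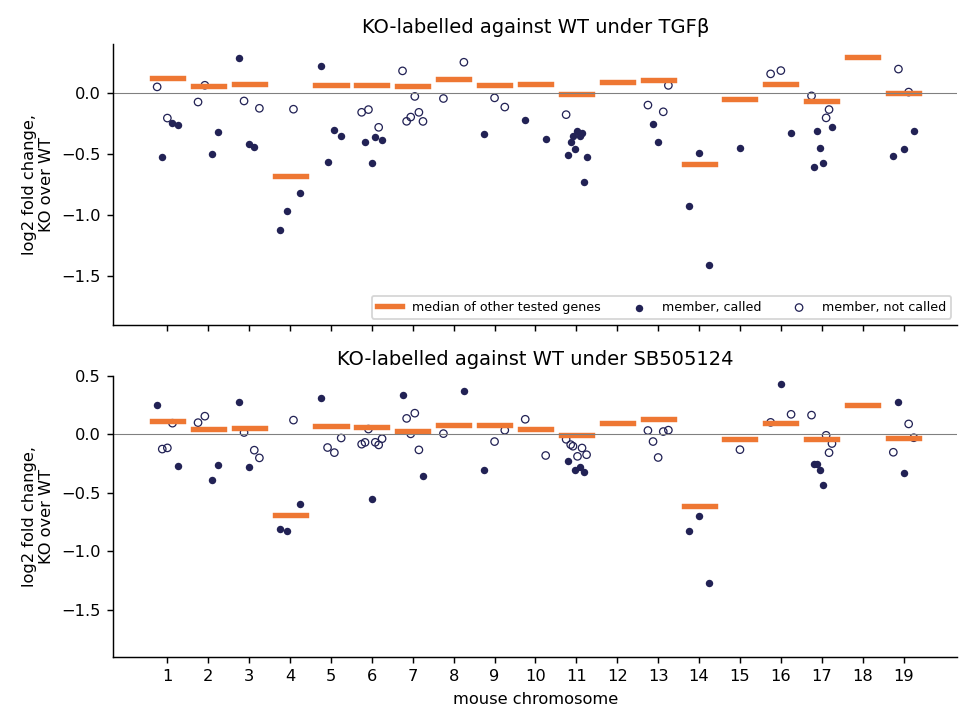
KO over WT log2 fold change of each of the 77 genes by mouse chromosome, under TGFβ (top) and SB505124 (bottom), with bars at the median of the other tested genes of that chromosome and filled points for called members. On chromosomes 4 and 14 the bars lie at -0.68 and -0.58 under TGFβ and at -0.69 and -0.61 under SB505124, and 6 of 7 members there were called lower in each panel. Of the other tested genes there, 70.1% to 80.2% were called lower, by chromosome and treatment.

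Off these chromosomes, Mrps24, a small subunit gene whose counterpart helps form the mRNA entry channel in bacteria, had 695 and 700.2 normalised counts in KO-labelled cells, against 1099 and 1219.5 in WT cells, under TGFβ (-0.73 ± 0.09, limma adjusted p = 1.29e-06). Under SB505124 it had 729.7 and 686 in KO-labelled cells, against 877 and 893 in WT cells (-0.32 ± 0.09), and 15.4% of its exon bases are shared with Urgcp on the same strand. Mrpl18 had 1356 and 1425 in KO-labelled cells under TGFβ, against 2050.5 and 2183 in WT cells (-0.61 ± 0.08). KO-labelled libraries lay below WT libraries in each of these pairs. Mrps10 was lower under both treatments (-0.57 under TGFβ, -0.43 under SB505124), as was Mrpl53 (-0.57 and -0.55), although 88.0% of the Mrpl53 exon bases are shared with the annotated gene Gm42688 on the same strand. Of the genes named whatever their values, Mrpl12 (-0.51), Mrpl11 (-0.52), Mrps18c (-0.35) and Mrpl45 (-0.31) were lower under TGFβ, while Mrpl10, Mrpl44, Mrps18a, Mrps18b, Mrps30 and Mrps36 ran from -0.21 to 0.06 and did not pass.

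A few members were higher in KO-labelled cells. Mrpl40, a large subunit gene specific to mitochondria, had 1996 and 1928 normalised counts in KO-labelled cells, against 1367 and 1563 in WT cells, under SB505124 (0.42 ± 0.09, limma adjusted p = 5.5e-04). Under TGFβ it had 2019.7 and 2107 in KO-labelled cells, against 1690.5 and 1954 in WT cells, and did not pass. Also higher under SB505124 were Mrps31 (0.37), Mrpl17 (0.34), Mrpl1 (0.31), Mrpl24 (0.28), Mrpl16 (0.27) and Mrpl15 (0.25), all but Mrps31 with a bacterial counterpart. Mrpl24 and Mrpl1 were higher under TGFβ as well (0.28 and 0.22). Mrpl1 encodes the mobile arm of the large subunit through which spent tRNA leaves, and its call under TGFβ was lost in 14 of 19 alternatives. Without WT TGFβ replicate 2 the number higher under TGFβ was 7, and without KO SB505124 replicate 1 or WT SB505124 replicate 1 the number higher under SB505124 was 3 or 2. The number lower under SB505124 was 14 without KO SB505124 replicate 1 and 12 without WT SB505124 replicate 2.

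Libraries were made without strand information, so reads of genes that overlap on opposite strands are not separated. This touches 27 of the 77 genes, by exons in GENCODE M21. The largest shares of exon bases opposite another gene were those of Mrps25 (69.8%, opposite Nr2c2), Mrps34 (63.4%, opposite Mapk8ip3) and Mrpl19 (36.0%, opposite Gcfc2). Mrpl46 and Mrps11 are neighbours that share 173 exon bases on opposite strands, and under TGFβ in WT cells Mrpl46 rose (0.29 ± 0.09) and Mrps11 did not pass (0.13 ± 0.09). Without the overlapping genes, 28 of 50 members rose in WT cells under TGFβ (median 0.26), and among the 27 with overlap 12 rose (median 0.19).

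Some mitoribosomal subunits carry other symbols. Of 6 such genes, 5 rose under TGFβ in WT cells, where 20.2% of all tested genes rose. Among them were the small subunit genes Chchd1 (0.45), Aurkaip1 (0.33) and Dap3 (0.24), the last encoding a GTP-binding protein. Ict1, a release factor built into the large subunit, rose by 0.28. None of the 6 passed in KO-labelled cells, where 30.9% of all tested genes were called. In KO-labelled against WT cells, Chchd1 was at -1.22 under TGFβ and -0.87 under SB505124, and Aurkaip1 at -1.04 and -0.90. Ict1 was at -0.43 under TGFβ and -0.23 under SB505124. Each of these 3 was called lower under both treatments. Chchd1 is on chromosome 14 and Aurkaip1 on chromosome 4, where 70.1% to 80.2% of other tested genes were called lower, by chromosome and treatment. With the chromosome median subtracted Chchd1 was at -0.60 under TGFβ and -0.23 under SB505124, and Aurkaip1 at -0.32 and -0.20.

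Genes that build and serve the mitoribosome had calls both ways under TGFβ in WT cells. Most counts were near or below the background of 15.1% higher and 15.8% lower in KO-labelled cells and 20.2% higher and 23.2% lower in WT cells. Medians in KO-labelled cells were negative for assembly factors (-0.11), translation factors (-0.12), aminoacyl-tRNA enzymes (-0.09) and transcription and maintenance genes (-0.15), against -0.02 for all tested genes. In WT cells they were -0.002, 0.009, 0.022 and -0.055, against -0.011. Of 23 assembly factors, 1 rose and 3 fell in KO-labelled cells and 3 rose and 3 fell in WT cells. The helicase gene Ddx28 fell by 0.78 in KO-labelled cells and by 0.45 in WT cells, and the GTPase gene Gtpbp10 fell by 0.45 in KO-labelled cells and by 0.50 in WT cells. Mterfd2, a partner of an rRNA methyltransferase, rose by 0.55 in WT cells. Of 17 translation factors, 2 fell in KO-labelled cells and 2 rose and 3 fell in WT cells. Taco1, a translational activator of cytochrome oxidase, fell in both (by 0.65 in KO-labelled and by 0.62 in WT cells), while in WT cells Slirp rose by 0.52 and its binding partner Lrpprc fell by 0.48. Of 20 mitochondrial aminoacyl-tRNA enzymes, 2 rose and 2 fell in KO-labelled cells and 4 rose and 3 fell in WT cells, with Mars2 and Nars2 falling in both. Of 10 genes of mitochondrial transcription and DNA maintenance, 1, Polg, rose in KO-labelled cells (0.30) and 1 rose and 2 fell in WT cells (Ssbp1 at 0.27, Tefm at -0.47, Polrmt at -0.31).

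The regulators of mitochondrial biogenesis went down or did not pass. Of 10 listed, 3 fell in KO-labelled cells and 4 in WT cells, and none rose. Of all tested genes 15.8% fell and 15.1% rose in KO-labelled cells, and 23.2% fell and 20.2% rose in WT cells. Ppargc1a, the coactivator PGC-1α, had 102.0 and 100.5 normalised counts under TGFβ and 170.3 and 182.2 under SB505124 in KO-labelled cells, and 43.2 and 37.7 under TGFβ and 136.8 and 149.2 under SB505124 in WT cells. Its log2 fold changes were -0.79 ± 0.17 in KO-labelled cells (limma adjusted p = 0.00128) and -1.80 ± 0.17 in WT cells (limma adjusted p = 1.05e-07). Gabpb2, a GABP subunit gene, fell by 0.29 in KO-labelled and by 0.46 in WT cells, and Myc fell by 0.64 in KO-labelled and by 0.51 in WT cells.

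In KO-labelled against WT cells, the shares of the lists called are read against a background of 30.2% of tested genes lower and 32.7% higher under TGFβ, and 27.7% lower and 29.2% higher under SB505124. The 23 assembly factors had 11 lower (47.8%) and 3 higher under TGFβ and 5 lower (21.7%, below the background) and 3 higher under SB505124, among them Mettl17 (-0.81 and -0.91) and Wbscr16 (-0.67 and -0.57). The 20 aminoacyl-tRNA enzymes had 12 lower (60.0%) and 2 higher under TGFβ and 9 lower (45.0%) and 4 higher under SB505124, and Rars2 was at -0.60 and -0.71. The 17 translation factors had 5 lower (29.4%, near the background) and 2 higher under TGFβ and 1 each way under SB505124, and Oxa1l, which inserts new proteins into the inner membrane, was at -0.70 and -0.71. Of the transcription and maintenance genes 2 were lower under TGFβ and 1 under SB505124. Of the biogenesis regulators 2 were higher under TGFβ, Ppargc1a (1.31) and the nuclear receptor gene Esrra (0.25), and no gene passed under SB505124. Mettl17 and Oxa1l are on chromosome 14 and Rars2 on chromosome 4, and with the chromosome median subtracted these 3 no longer passed under either treatment.

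The cytosolic ribosome is the counterpart of the mitochondrial one, and the respiratory chain takes up its products. Under TGFβ, 15.1% of all tested genes rose and 15.8% fell in KO-labelled cells, and 20.2% rose and 23.2% fell in WT cells. Of 75 cytosolic ribosomal protein genes, 7 rose in KO-labelled cells (9.33%, median 0.13) and 66 in WT cells (88.0%, median 0.41). None of them fell. Of 75 nuclear-encoded respiratory chain genes, 15 rose and none fell in KO-labelled cells (median 0.12), and 56 rose and 1 fell in WT cells (median 0.39). In KO-labelled against WT cells under SB505124, 27.7% of all tested genes were lower and 29.2% higher. The cytosolic list had 43 lower (57.3%) and none higher. The respiratory chain list had 6 lower (8.00%) and 13 higher (17.3%), both below the background, with a median of 0.06. The mitoribosomal list had 22 lower (28.6%) and 7 higher (9.09%). In KO-labelled against WT cells under TGFβ, 30.2% of all tested genes were lower and 32.7% higher. The cytosolic list had 70 lower (93.3%) and none higher (median -0.55). The respiratory chain list had 29 lower (38.7%) and 3 higher (4.00%), with a median of -0.18. The mitoribosomal list had 44 lower (57.1%) and 2 higher (2.60%). In the test of the difference of responses, 2 cytosolic (2.67%) and 5 respiratory chain genes (6.67%) passed, all with a negative difference (KO minus WT). Of all tested genes, 0.568% passed with a negative difference. These lists also differ in length, with medians of 711.5 nt for cytosolic ribosomal genes, 683 nt for respiratory chain genes and 1047 nt for the mitoribosomal genes, and differences between lists were not tested.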

How the data were processed

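The submitters' processing notes name build mm10 and the tools DESeq2 3.4, HTSeq 0.6.1p1 and FastQC 0.11.5, and the aligner is not given in the sources used here. For every gene the deposited signal is a normalised count, found from the values to be whole reads divided by a size factor of the library. Each value was a whole multiple of that library's step (100% within 0.01 reads), which gave back the reads, and the factors ran from 0.875 to 1.16. Per the labels, TruSeq RNA v2 libraries were made, a kit that keeps no strand.

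The 12498 genes with a mean of at least 10 were tested on log2(value + 1), which understates changes of low genes. Limma 3.58.1 in R 4.3.3 estimated 4 group means from the 8 libraries, with a variance trend (4 residual and 14.3 prior degrees of freedom), and p-values were adjusted by Benjamini-Hochberg over all tested genes at 0.05. The 5 contrasts were TGFβ against SB505124 per genotype, KO against WT per treatment, and the KO response minus the WT response. The procedure was also run on simulated counts, drawn independently for each gene with the same dispersion for all. Those counts held no shift shared by genes of a library, so that run cannot vouch for the counts of called members here. Alternatives were edgeR 4.0.16 and DESeq2 1.42.0 on whole reads, TMM factors, other pseudocounts and filters, no trend, a GC and length correction, chromosome medians subtracted, a replicate block and each library left out. Coordinates, lengths and exon overlaps come from GENCODE M21, and promoters from RefSeq.

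Members and lists were chosen with earlier results of these data known. Per comparison, up to 8 called members with the largest rise and up to 8 with the largest fall were named. Mrps18a, Mrps18b, Mrps18c, Mrps30, Mrpl10, Mrpl11, Mrpl12, Mrpl44, Mrpl45, Ict1, Mrps36 and the 5 highest and 5 lowest per kilobase were named whatever their values, as were up to 3 called genes with the smallest p of each other list, of which not all are printed. Mitochondrial genome transcripts were not analysed here.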

Additional observations from a re-analysis of the deposited data

Results flagged for a closer look

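Lars2 and Ppargc1a passed the test of the difference of TGFβ responses itself, which 2.82% of all tested genes passed. The naming rule picks genes that pass, so their being among the named genes adds no support. They were 1 of 20 aminoacyl-tRNA enzyme genes and 1 of 10 biogenesis regulators. No mitoribosomal gene passed, nor did any assembly factor, translation factor, or gene of mitochondrial transcription and DNA maintenance. Lars2, which encodes the mitochondrial leucyl-tRNA synthetase, had a difference of responses (KO minus WT) of -0.80 ± 0.14 (limma adjusted p = 0.00261). Its normalised counts were 40781 and 38507 under TGFβ and 44785 and 39713 under SB505124 in KO-labelled cells, and 73485 and 81351 under TGFβ and 47250 and 47118 under SB505124 in WT cells, and the median over the 20 aminoacyl-tRNA enzyme genes of the mean of 8 libraries was 667. The share of reads on the ribosomal precursor Rn45s was 0.509% and 0.485% under TGFβ and 0.495% and 0.505% under SB505124 in KO-labelled cells, and 1.06% and 0.743% under TGFβ and 0.718% and 0.614% under SB505124 in WT cells, and its part in the Lars2 values was not tested.

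Ppargc1a had a difference of responses of 1.01 ± 0.24 (limma adjusted p = 0.0255), with falls in both genotypes and levels of 37.7 to 182.2 normalised counts over the 8 libraries.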

How the results depend on the processing

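Counts and medians of members both changed with some settings, and the cause was not tested. For TGFβ in WT cells (40 higher, 0 lower), the GC and length correction gave 25 higher and 1 lower, the same with a replicate block 26 and 3, no variance trend 23 higher, and leaving out 1 library 13 to 42 higher. The median (0.26) was 0.11 with the correction and 0.18 to 0.29 with 1 library left out. For TGFβ in KO-labelled cells (5 higher, 1 lower), the correction gave 8 and 9, with the block 10 and 10, no filter 2 higher, no trend 1 higher, and leaving out 1 library 1 to 12 higher and 1 to 2 lower. Members outside chromosomes 4 and 14, an alternative chosen after seeing the data, had 0 lower. The median there (0.07) turned to -0.019 with the correction, with or without the block, and was 0.01 to 0.12 with 1 library left out. For the difference of responses (0 lower), edgeR and DESeq2 gave 2 each, the correction 4, with the block 7, the replicate block alone, chromosome medians subtracted and pseudocount 8 gave 1 each, and leaving out 1 library 0 to 12. The median ran from -0.21 to -0.10 with 1 library left out. For KO against WT under TGFβ (2 higher), DESeq2, edgeR, TMM factors, no filter and a minimum of 1.2-fold gave 1 each, no trend 0, the correction 7, with the block 8, and leaving out 1 library 0 to 7. The median was -0.21 with the correction, with or without the block. Under SB505124 (7 higher, 22 lower), the correction gave 15 higher, with the block 17, no trend 4, and leaving out 1 library 2 to 7 higher and 12 to 23 lower. The median was -0.029 with the correction and -0.16 to -0.051 with 1 library left out.

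Single genes changed sign with the GC and length correction: under TGFβ in WT cells Mars2 (0.084) and Mrpl19 (0.19) and, with the block, Mrpl10 (-0.15) and Mrps18b (-0.16), under TGFβ in KO-labelled cells Mrpl12 (-0.22), and in KO against WT cells under SB505124 Mrps18a (0.24). With chromosome medians subtracted, Mrps15 turned to 0.11 under SB505124, and Mrpl57 (0.13), Nsun4 (0.030), Pars2 (0.038) and Rars2 (0.12) turned under TGFβ. The replicate numbers do not pair the libraries by the labels, and same-numbered libraries deviated together with r of 0.102 in KO-labelled cells, 0.198 in WT cells, and -0.025 and -0.049 between genotypes under TGFβ and SB505124. Over the members alone r was 0.290 in KO-labelled cells, 0.311 in WT cells, -0.231 between genotypes under TGFβ and -0.121 under SB505124. With the replicate block alone the counts were 6 higher and 1 lower for TGFβ in KO-labelled cells, 39 and 0 in WT cells, 3 and 45 for KO against WT under TGFβ, and 7 and 23 under SB505124. Depth was similar across libraries, and 2 libraries per group limit the precision.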
